A study of Mus musculus with 6 samples.

Results

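Amino acid transporters set how much leucine, glutamine, alanine, arginine and cystine a T cell can take up. The 9 genes described here, named by symbol and each found in the expression tables of 28773 genes, encode the carriers most often studied in T cells: Slc1a4, Slc1a5, Slc3a2, Slc7a1, Slc7a5, Slc7a6, Slc7a11, Slc38a1 and Slc38a2. They were measured by bulk RNA sequencing of splenic mouse CD8+ T cells taken on day 35. All 6 samples came from mice whose implanted tumour had been treated by microwave ablation (MWA), a local heating therapy. In 3 samples (MWA+PBS, replicates 1 to 3) the mice had then received the vehicle PBS, and in the other 3 (MWA+2DG, replicates 4 to 6) they had received 2-deoxy-D-glucose (2DG), a glucose analogue that blocks glycolysis. By the study's methods the injections began right after the ablation and had ended before the cells were taken, the mice were female, and the cells were purified with a mouse CD8+ T cell isolation kit. The words under PBS and under 2DG below therefore name the groups, not the presence of the drug at sampling. The labels give no strain, tumour line or age for these samples, and do not say whether a sample is 1 mouse or a pool, so the p-values below measure the spread between these samples, which may be technical. There is no sample without ablation, so the comparison is only of MWA+2DG with MWA+PBS samples, which also differ in markers of cell content given below.

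T cells import amino acids through a few families. Slc3a2 is the heavy chain of CD98, a single-pass glycoprotein that carries a light chain of the Slc7 family to the plasma membrane and does not transport by itself. Its light chains differ in cargo: Slc7a5 (LAT1) and Slc7a8 (LAT2) exchange large neutral amino acids such as leucine, Slc7a6 and Slc7a7 exchange cationic for neutral amino acids, and Slc7a11 (xCT) exchanges glutamate for cystine. Slc7a1 (CAT1) takes up arginine and lysine without a heavy chain. Slc38a1 and Slc38a2 (SNAT1 and SNAT2) import small neutral amino acids with sodium, and Slc1a4 and Slc1a5 (ASCT1 and ASCT2) exchange alanine, serine and cysteine, with glutamine as a main cargo of Slc1a5. Activated T cells are known to raise Slc7a5, Slc3a2, Slc1a5 and Slc38a2, and leucine entry through CD98 supports signalling by the kinase complex mTORC1.

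Levels are FPKM (fragments per kilobase of transcript, scaled to the library's mapped fragments), a unit that corrects for gene length, and a log2 fold change (log2FC) is the difference of mean log2(FPKM + 1), MWA+2DG minus MWA+PBS. Genes with a mean of at least 1 FPKM over the samples were tested with limma, 12444 in all, and called at a Benjamini-Hochberg adjusted p under 0.05. Of the 9 transporters 7 were tested, and Slc1a4 and Slc7a11 were too low. In MWA+2DG 3 of the 7 were lower, Slc3a2, Slc38a2 and Slc7a5, against 17.1% of all genes tested. None was higher, against 22.3% of all genes tested, and at an unadjusted p under 0.05 the counts were 4 lower, against 20.5% of all genes, and 0 higher, against 28.1%. The study's methods select genes at P under 0.05 with a log fold change beyond 0.25, naming neither the log base nor an adjustment. Read here as an unadjusted p and a log2FC, this study's rule was passed by the same 3 genes, against 38.2% of all genes. The median log2 fold change of the 7 was -0.23, beside 0.05 over all genes tested. When each sample was instead scaled to the mean of 19 T lineage genes, 15 of which were themselves higher in MWA+2DG, the median of all genes moved to -0.29, the share of calls that were higher went from 56.5% to 9%, and all 7 transporters were called lower, against 56.8% of all genes tested, and passed the study's rule, against 57.9%. The summed level of the 9 genes ran from 124.2 to 132.9 FPKM in the MWA+PBS samples, against 102.4 to 106.1 FPKM in the MWA+2DG samples.

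**Figure D1:**
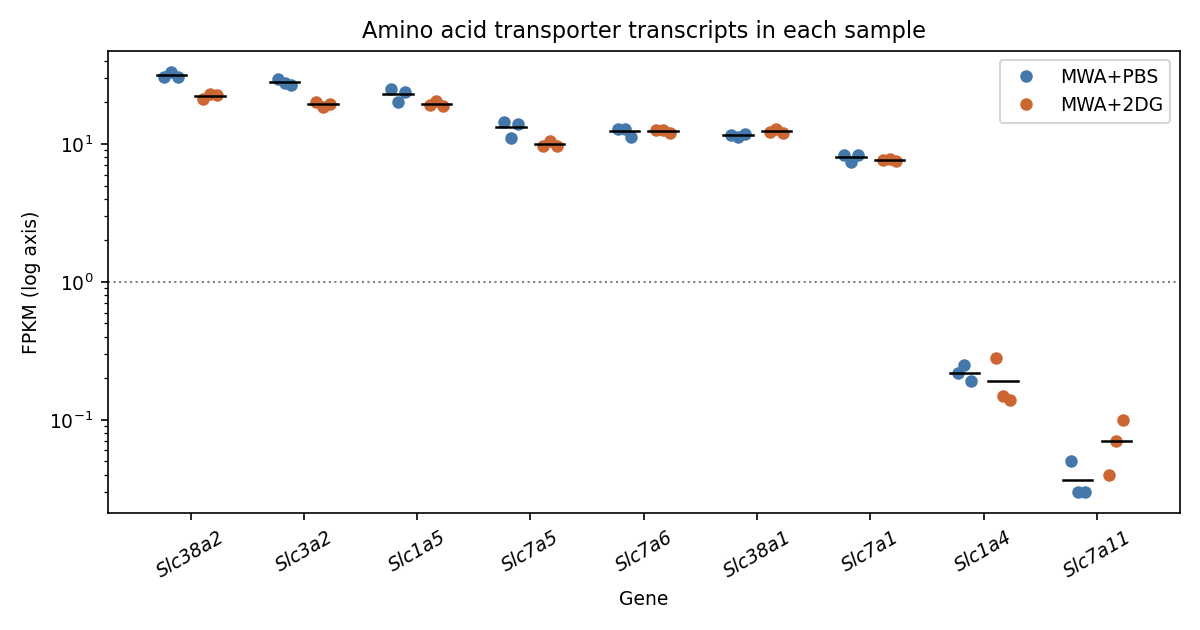
FPKM of each transporter (log axis) in the 3 MWA+PBS samples (blue) and the 3 MWA+2DG samples (orange), with a black bar at each group's mean and a dotted line at 1 FPKM. Slc38a2, Slc3a2 and Slc7a5 are lower in every MWA+2DG sample than in any MWA+PBS sample, while Slc1a4 and Slc7a11 lie below 0.3 FPKM throughout.

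The cell preparation has to be set beside these values. All 7 genes of the CD8 T cell identity list were higher in MWA+2DG, and Cd8a, a chain of the CD8 co-receptor, averaged 231.5 ± 6.96 FPKM in the MWA+PBS samples and 366.4 ± 9.47 FPKM in the MWA+2DG samples (SD, n = 3). Transcripts of other cells were present in both groups. All 14 monocyte and macrophage markers were lower in MWA+2DG, with a summed level of 924.7 to 994.2 FPKM against 132.7 to 142.9, and none was at 0 in any sample. All 10 tested erythroid markers were lower, from 310.9 to 366.9 FPKM against 81.2 to 97.5, again with none at 0. Neutrophil markers went the other way, with 11 of 12 higher, from 67.0 to 91.9 FPKM against 1596 to 1777, and all 10 B cell markers were higher, from 11.0 to 12.2 FPKM against 66.4 to 72.3, with Fcer2a at 0 in 1 MWA+PBS sample. Lower calls were also made for 2 of 5 tested CD4 T cell markers, 2 of 4 of plasma cells, 2 of 2 of dendritic cells, 3 of 4 of natural killer cells and 3 of 4 of platelets, and 1 natural killer cell marker, Eomes, which CD8 T cells also express, was higher. The 3 lower ones of that list were Ncr1, at a ratio of mean FPKM of 0.751, Tyrobp at 0.390 and Fcer1g at 0.275. Like Eomes, a listed marker need not be particular to its cell type, so this count does not stand for natural killer cells alone. Of 25 proliferation genes 23 were lower, from 404.5 to 430.3 FPKM against 280.4 to 291.2, and of 23 tested immediate early and heat shock genes 17 were lower and 3 higher, from 2000 to 2089 FPKM against 731.8 to 751.9. The part of each of these in the transporter values was not tested. In bulk samples fewer cells of a type and less RNA per cell cannot be told apart, and the labels name no batch, so any batch that follows the treatment cannot be told apart from it.

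The heavy chain of CD98 had the largest log2FC of the 7 in size, close to that of Slc38a2. Slc3a2 (ENSMUSG00000010095) was at 29.6, 27.9 and 26.9 FPKM in the MWA+PBS samples and at 20.1, 18.6 and 19.4 FPKM in the MWA+2DG samples. The 3 MWA+2DG samples lay close together and well below the lowest MWA+PBS sample. The mean fell from 28.1 ± 1.39 to 19.4 ± 0.746 FPKM (SD, n = 3), a ratio of 0.690, with a log2FC of -0.51 (SE 0.0583, 95% interval -0.65 to -0.38, limma adjusted p = 0.000444). The call held in all 15 alternative settings. The longest Slc3a2 transcript, of 2813 bases, shares a stretch of up to 182 bases at 95% identity or more with transcripts of 289 other genes, so a few of its reads may be assigned with uncertainty.

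Slc7a5 (ENSMUSG00000040010), the leucine-carrying light chain, was at 14.4, 11.1 and 14.1 FPKM in the MWA+PBS samples and at 9.68, 10.4 and 9.71 FPKM in the MWA+2DG samples. The groups did not overlap, but MWA+PBS replicate 2 came close to the highest MWA+2DG sample. The mean fell from 13.2 ± 1.84 to 9.95 ± 0.436 FPKM (SD, n = 3), a ratio of 0.755, with a log2FC of -0.36 (SE 0.0992, 95% interval -0.60 to -0.13, limma adjusted p = 0.0227). This call was less secure than that of Slc3a2. It was lost without the filter on low values (limma adjusted p = 0.0568) and without any 1 of MWA+PBS replicate 1 (0.0766), MWA+PBS replicate 3 (0.069), MWA+2DG replicate 4 (0.0701) or MWA+2DG replicate 6 (0.0684), with log2FC values from -0.36 to -0.30.

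Slc7a6 (ENSMUSG00000031904), the light chain that exchanges cationic for neutral amino acids, was at 12.8, 12.9 and 11.2 FPKM in the MWA+PBS samples and at 12.5, 12.5 and 12.0 FPKM in the MWA+2DG samples. Its groups overlapped, and the log2 fold change was 0.0056 (95% interval -0.15 to 0.16, limma adjusted p = 0.954), or -0.36 after T lineage scaling (limma adjusted p = 0.00192). In MWA+PBS Slc7a5 and Slc7a6 overlapped in level, whereas in MWA+2DG every Slc7a6 value was above every Slc7a5 value.

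The other light chains of CD98 among the transporter genes outside the 9 changed far more. Slc7a8 (LAT2) was at 9.11, 6.76 and 8.25 FPKM in the MWA+PBS samples and at 1.08, 1.39 and 1.23 FPKM in the MWA+2DG samples, with a log2FC of -2.01 (limma adjusted p = 1.34e-05). Slc7a7 was at 8.17, 7.48 and 6.58 FPKM in the MWA+PBS samples and at 1.64, 1.26 and 1.41 FPKM in the MWA+2DG samples, with a log2FC of -1.79 (limma adjusted p = 1.26e-05). Their FPKM ratios, 0.153 for Slc7a8 and 0.194 for Slc7a7, can be read beside those of the macrophage markers C1qa, a complement component, at 0.156, and Hmox1, the heme-degrading oxygenase, at 0.122. The part of macrophage transcripts in Slc7a7 and Slc7a8 was not tested.

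As a description made after these values were seen, the light chains Slc7a5, Slc7a6, Slc7a7, Slc7a8 and Slc7a11 were summed in each sample. The sum came to 44.6, 38.2 and 40.1 FPKM in the MWA+PBS samples and to 25.0, 25.7 and 24.4 FPKM in the MWA+2DG samples. Slc7a7 and Slc7a8 together made up 37.0% to 38.8% of it under PBS and 10.3% to 10.9% under 2DG. The share of Slc7a5 ran from 28.9% to 35.0% under PBS and from 38.8% to 40.6% under 2DG, and that of Slc7a6 from 27.9% to 33.8% and from 48.8% to 50.2%. The sum divided by Slc3a2 was 1.37 to 1.51 under PBS and 1.24 to 1.38 under 2DG, so these ranges overlapped.

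**Figure D2:**
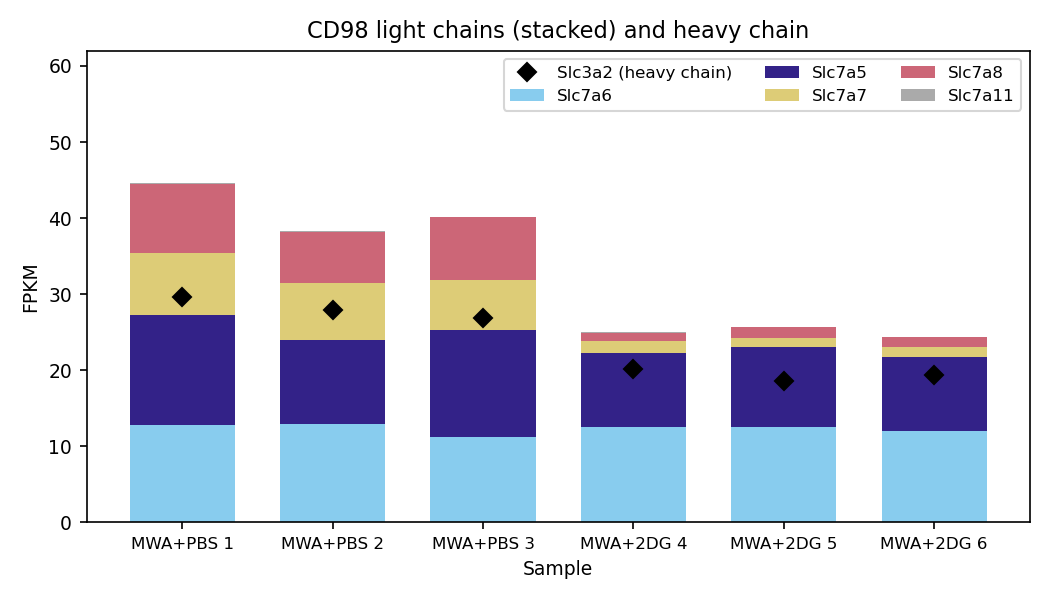
FPKM of the CD98 light chains in each sample, stacked, with a diamond at the level of the heavy chain Slc3a2; Slc7a11 is too low to be seen. The stacks reach 38.2 to 44.6 FPKM under PBS and 24.4 to 25.7 FPKM under 2DG, and the Slc7a7 and Slc7a8 segments shrink most.

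Among the sodium-coupled carriers Slc38a2 was lower in MWA+2DG, while Slc38a1 and Slc1a5 did not pass. Slc38a2 (ENSMUSG00000022462), which cells short of amino acids are known to induce, was the most abundant of the 9 in both groups, at 30.8, 33.4 and 30.6 FPKM in the MWA+PBS samples and at 21.3, 23.2 and 22.5 FPKM in the MWA+2DG samples. The groups were widely separated. The mean fell from 31.6 ± 1.58 to 22.3 ± 0.978 FPKM (SD, n = 3), a ratio of 0.708, with a log2FC of -0.48 (SE 0.0595, 95% interval -0.62 to -0.34, limma adjusted p = 0.000671), and the call held in all 15 alternative settings.

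Slc38a1 (ENSMUSG00000023169), its paralogue, was at 11.6, 11.2 and 11.9 FPKM in the MWA+PBS samples and at 12.1, 12.8 and 12.0 FPKM in the MWA+2DG samples. The groups did not overlap, with MWA+2DG above, but the gap was small and the log2 fold change of 0.09 did not pass (SE 0.055, 95% interval -0.04 to 0.21, limma adjusted p = 0.256), and T lineage scaling turned it to -0.28 (limma adjusted p = 0.0058). With Slc3a2, Slc38a2 and Slc7a5 it made 4 of the 7 tested transporters whose groups did not overlap, a property shared by 52.1% of all genes tested.

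Slc1a5 (ENSMUSG00000001918), the glutamine carrier ASCT2, was at 25.1, 20.1 and 23.9 FPKM in the MWA+PBS samples and at 19.1, 20.4 and 19.0 FPKM in the MWA+2DG samples. MWA+PBS replicate 2 lay within the MWA+2DG range, so the groups overlapped. The means were 23.0 ± 2.61 and 19.5 ± 0.779 FPKM (SD, n = 3), and the log2 fold change of -0.23 (SE 0.0853, 95% interval -0.42 to -0.03) did not pass after adjustment (limma adjusted p = 0.0711). Without MWA+PBS replicate 2 it was -0.32 and passed (limma adjusted p = 0.00594). Without MWA+PBS replicate 1 it was -0.16 (limma adjusted p = 0.213), and leaving out any other sample did not make it pass.

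Slc7a1 (ENSMUSG00000041313), the arginine and lysine carrier, was at 8.37, 7.38 and 8.29 FPKM in the MWA+PBS samples and at 7.61, 7.82 and 7.52 FPKM in the MWA+2DG samples. All MWA+2DG values lay inside the MWA+PBS range, and the log2 fold change was -0.06 (95% interval -0.21 to 0.09, limma adjusted p = 0.517), or -0.41 after T lineage scaling (limma adjusted p = 0.0017). Slc7a1 was the lowest of the 7 tested transporters in both groups.

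Slc1a4 (ENSMUSG00000020142), the alanine and serine carrier ASCT1, was at 0.22, 0.25 and 0.19 FPKM in the MWA+PBS samples and at 0.28, 0.15 and 0.14 FPKM in the MWA+2DG samples. Slc7a11 (ENSMUSG00000027737), the cystine carrier, was at 0.05, 0.03 and 0.03 FPKM in the MWA+PBS samples and at 0.04, 0.07 and 0.10 FPKM in the MWA+2DG samples. Both genes overlapped between groups, and both were above 0 in every sample. In a fit without the filter neither passed, with a log2FC of -0.04 for Slc1a4 (limma adjusted p = 0.705) and 0.05 for Slc7a11 (limma adjusted p = 0.341). The files hold no counts, so the number of reads behind these low values is unknown. The longest Slc7a11 transcript also shares up to 375 bases at 95% identity or more with transcripts of 9 other genes.

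The order of the levels changed in the middle. In MWA+PBS Slc38a2 was followed by Slc3a2, Slc1a5, Slc7a5, Slc7a6, Slc38a1, Slc7a1, Slc1a4 and Slc7a11, and the ranges of Slc7a5 and Slc7a6 and of Slc7a6 and Slc38a1 overlapped. In MWA+2DG Slc38a2 was followed by Slc1a5 and Slc3a2, which overlapped, then by Slc7a6 and Slc38a1, which overlapped, and then by Slc7a5, Slc7a1, Slc1a4 and Slc7a11.

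Whether related carriers moved unequally was asked of 5 pairs by subtracting their log2(FPKM + 1) within each sample, which removes most of any scaling of a sample. Slc38a2 exceeded Slc38a1 by 1.34, 1.49 and 1.29 in the MWA+PBS samples and by 0.76, 0.81 and 0.85 in the MWA+2DG samples, a change of the mean difference of -0.57 without overlap (two-sided exact permutation p = 0.1, adjusted over the 5 pairs 0.167). Slc7a5 minus Slc7a6 came to 0.16, -0.21 and 0.30 in the MWA+PBS samples and to -0.34, -0.24 and -0.28 in the MWA+2DG samples, a change of -0.37 without overlap (exact permutation p = 0.1, adjusted 0.167). With 3 samples against 3 the exact test cannot go below 0.1, so these comparisons could not pass 0.05. Slc7a5 minus Slc3a2 averaged -1.05 ± 0.193 under PBS and -0.90 ± 0.107 under 2DG (SD, n = 3), with overlap (exact permutation p = 0.4, adjusted 0.4), so a different change of the light and the heavy chain was not shown. Slc1a5 minus Slc1a4 was 4.29 ± 0.189 and 4.11 ± 0.124 (SD, n = 3), with overlap (exact permutation p = 0.3, adjusted 0.375), and since Slc1a4 was near 0 this difference carries Slc1a5 almost alone. Slc7a11 minus Slc3a2 was -4.81 ± 0.0541 and -4.25 ± 0.08 (SD, n = 3) without overlap (exact permutation p = 0.1, adjusted 0.167), and likewise carries Slc3a2 almost alone, Slc7a11 being near 0. Neither of these last pairs can show whether its genes moved unequally.

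**Figure D3:**
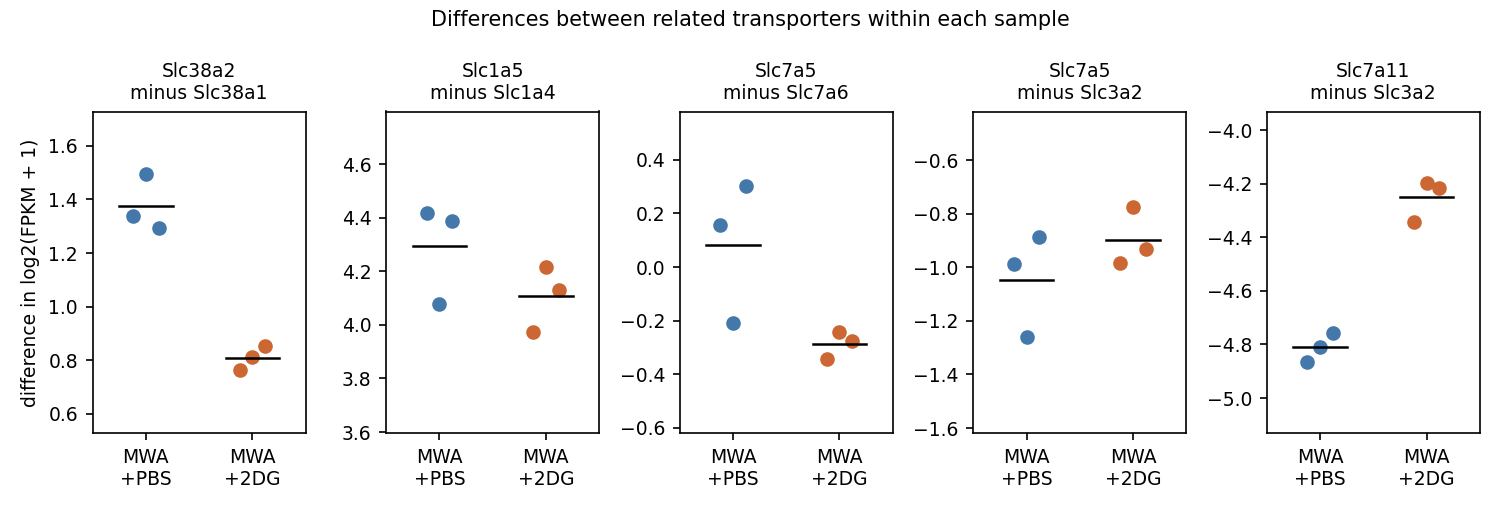
Difference in log2(FPKM + 1) between related transporters within each sample, for 5 pairs, with a black bar at each group's mean and the same vertical span in every panel. Slc38a2 minus Slc38a1 and Slc7a5 minus Slc7a6 are lower in all 3 MWA+2DG samples than in any MWA+PBS sample.

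The genes whose pattern over the 6 samples was nearest to that of Slc3a2, by the Euclidean distance of log2(FPKM + 1) centred on each gene's mean, were Nudc at 0.0751, Clic4 at 0.0807 and P2ry1 at 0.0822, against a median distance of 0.774 over the genes tested. In all, 180 of the 12444 genes were closer than 0.2.

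Other amino acid transporters of the plasma membrane were read from a list of 19 genes, of which 18 were in the files and 6 were tested. The counts of this and the next lists stand beside 39.4% of all genes called, 22.3% higher and 17.1% lower. None had a log2FC above 0, and 4 were lower: Slc7a7, Slc7a8, Slc16a10 and Slc43a2. Slc16a10, a carrier of aromatic amino acids, fell from 5.33 ± 0.1 to 1.60 ± 0.139 FPKM (SD, n = 3) with a log2FC of -1.28 (limma adjusted p = 1.52e-05). Slc43a2 (LAT4), a facilitated carrier of branched-chain amino acids, phenylalanine and methionine, fell from 13.6 ± 1.04 to 9.41 ± 0.791 FPKM (SD, n = 3) with a log2FC of -0.49 (limma adjusted p = 0.00271). Slc6a6, the taurine carrier, did not pass, with 14.3 to 17.1 FPKM under PBS and 14.4 to 15.6 FPKM under 2DG (limma adjusted p = 0.417).

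Of 8 tested lysosomal transporters 4 were lower and 0 higher by limma's adjusted p, with 1, Slc38a9, higher at an unadjusted p under 0.05. Slc15a3, a histidine and peptide carrier, had a log2FC of -1.06 (limma adjusted p = 0.000174), its relative Slc15a4 of -0.58 (0.0042), the cysteine importer Mfsd12 of -0.52 (0.00159), and Slc36a1 (PAT1), a proton-coupled exporter, of -0.21 (0.0186). Slc38a9, the lysosomal arginine sensor, had 0.19 (limma adjusted p = 0.0789). Of 10 tested mitochondrial carriers 2 were higher and 2 lower. Sfxn3, a serine carrier, rose from 22.3 ± 1.89 to 30.7 ± 0.874 FPKM (SD, n = 3) with a log2FC of 0.44 (limma adjusted p = 0.00209), while the aspartate-glutamate carriers went opposite ways, Slc25a12 to 0.28 (0.00731) and Slc25a13 to -0.77 (0.000798). With 0.1 in place of 1 added to the FPKM, Slc25a12 came to 0.31, Slc25a13 to -1.25 and the lysosomal Slc15a3 to -1.70. Slc25a38, the glycine carrier, was lower, with -0.33 (limma adjusted p = 0.00426).

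**Figure D4:**
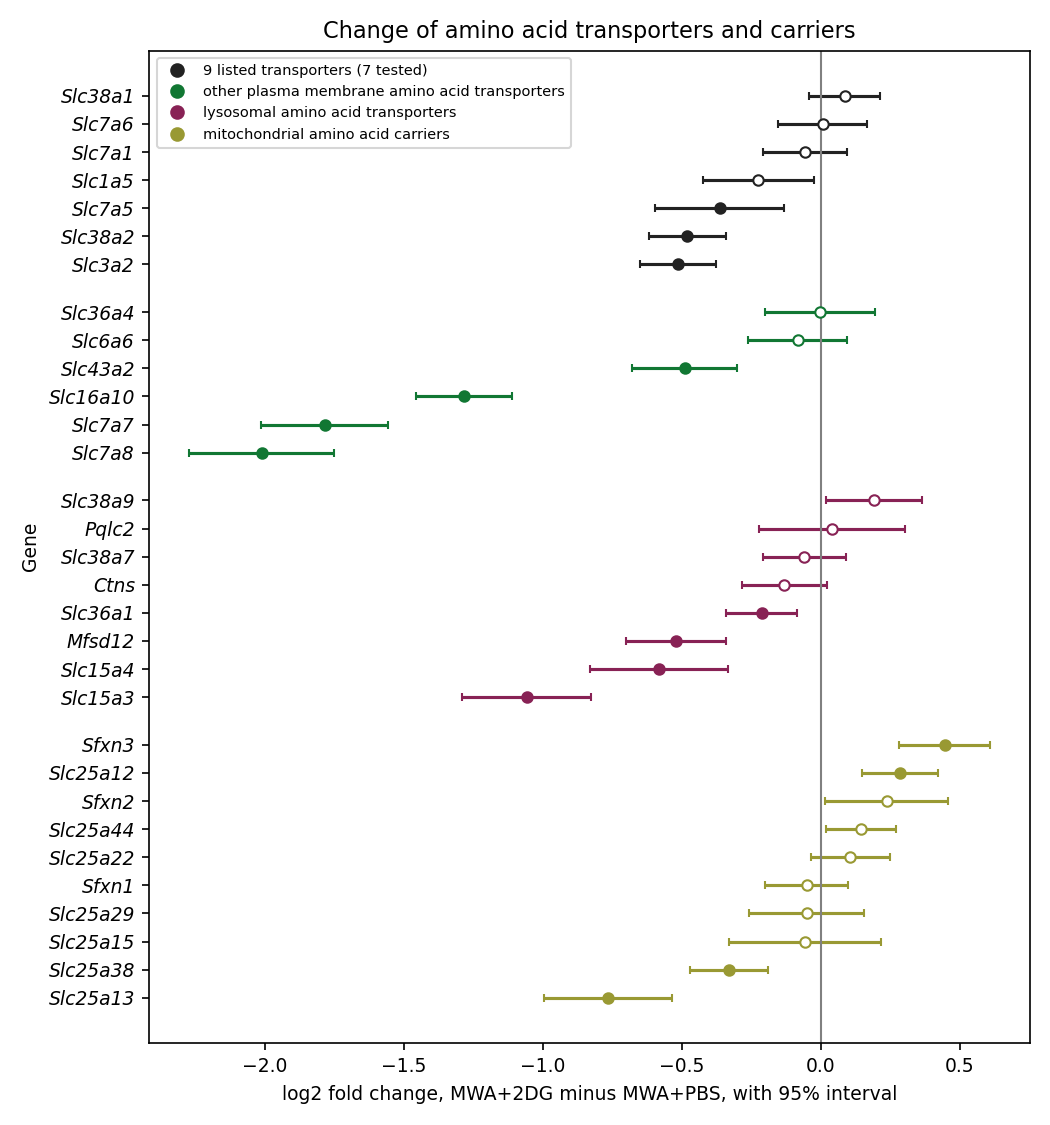
Log2 fold change (MWA+2DG minus MWA+PBS) of each tested transporter with its 95% interval, for the 9 listed transporters (black), other plasma membrane transporters (green), lysosomal transporters (purple) and mitochondrial carriers (olive). Filled points passed at an adjusted p under 0.05; Slc7a8 at -2.01 and Slc7a7 at -1.79 lie well beyond Slc3a2 at -0.51.

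Downstream of transport, the sensing of amino acids by mTORC1 was read from 35 genes, all tested, of which 5 were higher, 5 lower and 25 not called, with a median log2 fold change of 0.09. The lower genes were Fnip2 with -0.84 (limma adjusted p = 0.00119) and its partner Flcn, the folliculin GTPase activator, with -0.37 (0.00897), the leucine sensor Sesn2 with -0.70 (0.00496), and the Rag GTPases Rragd with -0.36 (0.0325) and Rragc with -0.23 (0.0105). The higher genes were Kptn, a KICSTOR subunit, with 0.40 (limma adjusted p = 0.0163), Nprl3, a GATOR1 subunit, with 0.38 (0.00899), the Rag GTPase Rraga with 0.35 (0.0234), Lamtor3 of the Ragulator with 0.27 (0.0261), and Mlst8, an mTOR complex subunit, with 0.25 (0.0172). Of 20 cytosolic aminoacyl-tRNA synthetases, which charge tRNAs with amino acids, 18 were not called and 2 were higher, Sars with 0.19 (limma adjusted p = 0.0418) and Wars with 0.19 (0.0442).

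Among 14 regulators of transporter genes and turnover, 13 tested, Atf4 was the lower gene and Myc and Arrdc3 the higher ones. Atf4, the transcription factor of the amino acid response, was at 45.1, 50.9 and 39.4 FPKM in the MWA+PBS samples and at 34.4, 31.4 and 34.4 FPKM in the MWA+2DG samples, with a log2FC of -0.42 (limma adjusted p = 0.0103). Myc, which is known to drive Slc7a5 and Slc1a5 in activated T cells, was at 62.3, 56.0 and 62.6 FPKM in the MWA+PBS samples and at 72.2, 75.2 and 70.6 FPKM in the MWA+2DG samples, with a log2FC of 0.27 (limma adjusted p = 0.0114). Arrdc3, an arrestin-like adaptor, had 0.27 (limma adjusted p = 0.0349). Of the 27 called genes of these lists 14 kept their call in every alternative they were tested in, which was all 15 for 5 of them and 14 for the other 9, too low for the 5 FPKM filter. Leaving out 1 sample ended the call of 9, each given here with 1 such sample. They were Slc36a1 (limma adjusted p = 0.0707 without MWA+2DG replicate 6), Rraga (0.0766) and Mlst8 (0.0692), also without that sample, and Wars (0.152, likewise). Rragd (0.105) and Lamtor3 (0.0879) lost theirs without MWA+PBS replicate 1, and Kptn (0.0598), Sars (0.123) and Arrdc3 (0.118) without MWA+2DG replicate 4. Some were also lost without other samples, as Slc36a1 was without MWA+PBS replicate 1 (limma adjusted p = 0.0645) or MWA+2DG replicate 5 (0.057). Over all alternatives tested, the call of Wars was lost in 12 of 15, of Sars in 10, of Rraga in 7 and of Lamtor3 in 6. That of Slc36a1 was lost in 3 of 15 and of Mlst8 in 2, of Rragd and Arrdc3 in 7 of 14 and of Kptn in 3. With T lineage scaling the calls of Sfxn3, Nprl3 and Kptn were lost, and Myc, Arrdc3, Rraga, Lamtor3, Mlst8, Sars, Wars and Slc25a12 turned below 0.

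ATF4 is known to act on several transporter genes through an amino acid response element, so the 250 bases before the start sites of the 9 genes were searched for the core of the ATF4 and C/EBP response element, TTGCATCA on either strand. RefSeq windows (GRCm38.p6) were at hand for 6 of the 9 genes, and Slc1a5, Slc7a5 and Slc38a1 were not searched. For Slc3a2 and for 1 of the 2 Slc7a6 windows, the bases just after the start site were not found in the gene's GENCODE M21 transcripts. The start sites of these windows are therefore less certain. Of the 6, only Slc7a11 held it, with 2 matches starting 66 and 47 bases before the start site, and 0.791% of 32851 windows of the same length held it. The sequence of Slc7a11 is shown for these matches, in capitals (the first on the other strand, the second on the gene's strand). This printed stretch ends short of the start site. That of Slc38a2, which runs up to the start site, is shown as the most abundant transporter that fell and has no match in its window.
Slc7a11, chr3:50443623-50443709, minus strand: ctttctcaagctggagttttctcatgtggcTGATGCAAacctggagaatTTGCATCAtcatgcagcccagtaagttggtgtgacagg
Slc38a2, chr15:96699729-96699828, minus strand: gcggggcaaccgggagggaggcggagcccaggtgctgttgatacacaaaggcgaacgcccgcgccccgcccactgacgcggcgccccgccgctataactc
Slc7a11 is 1 of the 2 transporters near 0 in all samples, and the absence of these letters from the window of Slc38a2 or Slc3a2 says only that they are not in this window. The E-box CACGTG, present in 6.02% of windows, and the cAMP response element TGACGTCA, present in 1.55%, were in none of these 6, which leave out Slc7a5 and Slc1a5, and the AP-1 site TGACTCA, present in 4.46%, was in Slc7a1 alone, once. All motifs were searched on both strands.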

How the data were processed

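CD8+ T cells isolated from spleens were profiled by strand-marked poly(A) RNA sequencing in 6 samples. The authors deposited 1 FPKM value per gene and sample. Their processing notes name cutadapt 1.9, HISAT2 2.0.4, UMI-tools, StringTie 1.3.4d and the build mm9, and their methods name fastp and ballgown. Which annotation was used is not stated. Depth is unknown, so no counting interval is given. A gene's FPKM is a share of its library, so genes that take up more of 1 library lower the rest.

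Symbols were assigned to 28689 of 28773 gene IDs. Log2(FPKM + 1) was fitted with limma 3.58.1 (R 4.3.3, lmFit, eBayes with trend, no covariates) over genes with a mean of at least 1 FPKM, with Benjamini-Hochberg adjustment over all of them. The procedure was also run on simulated data with independent noise and changes larger than those of the tested transporters. That run does not test how cell content or batch bears on the calls. Pair differences were tested by exact permutation (SciPy 1.17.1). Transcripts (GENCODE M21) were compared with BLAST 2.17.0, counting alignments of at least 100 bases. Promoter windows came from RefSeq (GRCm38.p6), not from the build of the files. A protein comparison was planned but not made here.

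The 9 genes and all lists were chosen with earlier results of these data known. The text names, besides the 9, up to 4 called genes per direction of each pathway list (5 for mTORC1 sensing, to name every gene counted) with any gene needed to say what a count holds, marker genes of high level, and the 3 genes nearest to Slc3a2. The alternatives were another pseudocount, 2 other filters, 4 other scalings, a fit without the variance trend, sample weights, and leaving out each sample.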

Additional observations from a re-analysis of the deposited data

How the results depend on the processing

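Slc3a2 and Slc38a2 passed in all 15 alternatives, with log2 fold changes from -0.89 to -0.48 (highest limma adjusted p = 0.00295) and from -0.86 to -0.44 (0.00408). No transporter was called higher in any. The number called lower ran from 2 to 4, while the share of all genes called lower ran from 9.27% (no filter) to 21.5% (sample weights), except after scaling to T lineage genes, where all 7 were lower, against 56.8% of all genes tested, and all 7 passed the study's rule, against 57.9%. That scaling moved the median of all genes from 0.05 to -0.29, and 9% of its calls were higher against 56.5%. Relative to that median Slc3a2 was at -0.60 and Slc38a2 at -0.57, against -0.56 and -0.53 in the original scaling. It also turned Slc38a1 (-0.28), Slc25a12 (-0.0703), Rraga (-0.0148), Lamtor3 (-0.0946), Mlst8 (-0.0803), Sars (-0.19), Wars (-0.19), Myc (-0.12) and Arrdc3 (-0.0396). It called 62.4% of all genes, and 19 of 35 mTORC1 genes, 19 of 20 synthetases and 9 of 13 regulators, all lower. Slc7a6, near 0, turned to -0.0175 with quantile normalization, -0.0415 with median ratio scaling, -0.36 with T lineage scaling and -0.0218 with sample weights, and ran from -0.0559 to 0.0386 when 1 sample was left out. Slc1a5 passed with median ratio scaling (limma adjusted p = 0.0481), T lineage scaling (0.000859) and sample weights (0.00513).

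Without the filter, where 18.3% of all genes were called against 39.4%, 9 other plasma membrane transporters and 0 synthetases were called. With a minimum of 5 FPKM, where fewer genes are tested and 40.4% of them were called, 1 plasma membrane transporter, 1 lysosomal transporter and 5 mTORC1 genes were called. Sample weights called 50.7% of all genes, 16 of 35 mTORC1 genes and 5 of 20 synthetases, and a fit without the trend called 38.6% of all genes and 0 synthetases. Leaving out 1 sample called 29.8% to 41.7% of all genes, 6 to 10 mTORC1 genes and 0 to 2 synthetases. Of the 27 called genes of the pathway lists 14 kept their call in every alternative they were tested in. Pair differences kept their direction in all 35 comparisons. Apart from the smaller set tested, the cause was not tested. No paired analysis was possible because the groups share no replicate number. Depth is unknown, so the precision of Slc1a4 and Slc7a11 cannot be given.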
